A study of Neogale vison with 6 samples.

Results

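Long noncoding RNA (lncRNA) genes were examined in Mv1Lu cells, an epithelial cell line from mink lung, before and after cholesterol depletion (CD). A gene was included when the count table gave it the biotype lncRNA and when its reads, summed over all 6 libraries, came to 60 or more. This held for 207 of the 531 lncRNA genes in a table of 24526 genes. Of the other 324 lncRNA genes, 215 had between 1 and 59 reads and 109 had 0 reads. The genes were thus chosen by their read total, which takes the control and the CD libraries together, and not by their difference.

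The study comprised 3 control libraries of untreated Mv1Lu cells and 3 libraries after CD. For CD, the cells were kept for 16 h with 50 μM of the statin lovastatin and 50 μM mevalonate, and the medium held 10% LPDS, a serum freed of lipoproteins. Statin, mevalonate and LPDS were not varied separately, so their separate shares in a difference cannot be told apart. RNA was captured by its poly(A) tail before sequencing. Nothing in the labels says whether the 3 libraries of a group came from separate cultures, so p-values measure only the spread between these libraries.

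lncRNAs are transcripts without a long open reading frame. Many are made by RNA polymerase II and are capped, spliced and polyadenylated like mRNAs, whereas others lack a poly(A) tail and are then poorly captured by oligo(dT). Known members act at chromatin, in nuclear bodies such as paraspeckles, or in the cytoplasm on mRNAs and microRNAs, and many are short-lived and kept low by the nuclear exosome. None of the 531 lncRNA genes has a symbol in the table, and no mink identifier could be matched to the RefSeq table at hand, so the genes are named here by their Ensembl identifiers and nothing is said of their function. No positions, lengths or sequences of these genes were at hand. Reads can be compared between libraries for a given gene, but the number of reads of different genes also depends on their length.

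The libraries held 13473820 to 18633764 reads on genes. The first principal component of log2 CPM (CPM is a gene's count relative to the TMM-normalized library size) held 79.2% of the variance and separated CD from control. The second held 12.1%, with CD replicates 1 and 3 at its opposite ends. Of 5 genes of the sterol response, 4 rose in CD, among them HMGCS1, the cytosolic HMG-CoA synthase (log2 fold change 3.43, FDR 4.17e-07, quasi-likelihood test of edgeR). Of the epithelial markers, KRT7 and KRT19 were abundant (7126 ± 265 and 936 ± 66.9 CPM in control cells, SD, n = 3), but CDH1 and EPCAM, which define most epithelia, had 26 and 9 reads over all libraries. The mesenchymal marker VIM was at 4070 ± 119 CPM in control cells. Of the leukocyte and endothelial markers, PTPRC, ITGAM and CDH5 had 1 read each, while of the 3 that could be tested 2 were higher and 1 was lower. CD68, of macrophage lysosomes, rose from 5.45 ± 0.273 to 19.65 ± 2.75 CPM, VWF, of endothelium, rose with 61 reads in all (log2 fold change 3.38), and TEK fell from 215 ± 7.79 to 102 ± 24.6 CPM (SD, n = 3 each, FDR 2.49e-05, 8.82e-04 and 5.27e-04, edgeR). Summed over each list, the epithelial markers lay between 7932 and 8581 CPM in the control and between 1684 and 2082 CPM in the CD libraries, and the mesenchymal markers between 6996 and 7812 and between 6678 and 7516 CPM. The epithelial sum is mostly KRT7, which fell to 1256 ± 156 CPM. Of the 6 tested epithelial markers KRT7 and KRT19 were lower, CLDN4, a tight junction claudin, was higher (log2 fold change 3.55, FDR 9.61e-06, edgeR) and 3 were not called, and 4 mesenchymal genes were higher and 4 lower of 11. The part of these shifts in the lncRNA results was not tested, and in such bulk samples fewer cells of a type and less RNA per cell cannot be told apart.

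Reads on lncRNA genes were very unevenly distributed. Of the 1013829 reads on the 207 genes, 69.1% belonged to a single gene, ENSNVIG00000017438, and a further 17.0% to the next 4. That this gene is a lncRNA rests on its biotype in the count table, which could not be checked without its sequence, so shares are given with and without it. The median gene was at 2.94 CPM. There were 35 genes under 1 CPM, 129 between 1 and 10 CPM, 39 between 10 and 100 CPM and 4 above. As a share of the reads on all genes, control replicates 1, 2 and 3 gave 2.59%, 1.74% and 0.482% to the 207 genes. CD replicates 1, 2 and 3 gave them 0.392%, 0.474% and 1.28%. Thus the groups overlapped, with means of 1.60% ± 1.06 in control and 0.715% ± 0.490 in CD (SD, n = 3 each). With ENSNVIG00000017438 left out, the share was 0.356%, 0.359% and 0.344% in the control libraries and, in the same order of replicates, 0.305%, 0.330% and 0.355% after CD. The 95% Clopper-Pearson interval of each of these shares, which covers counting error only, reached at most 0.00828 percentage points to either side. Without that gene, therefore, the remaining 206 genes together took between 0.305% and 0.359% in all 6 libraries, and the groups overlapped.

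ENSNVIG00000017438 was the lncRNA gene with the largest spread within both groups. It was at 22773, 13485 and 1415 CPM in control replicates 1, 2 and 3. In CD replicates 1, 2 and 3 it was at 832, 1449 and 9632 CPM. The highest library exceeded the lowest 16.1-fold among the control and 11.6-fold among the CD libraries, and control replicate 3 lay below 2 of the 3 CD libraries. Its log2 fold change of -1.66 had a standard error of 1.13 and was not called (FDR 0.262, edgeR). The same 6 libraries were then put in order by 15 other measures, chosen after the values of this gene were seen, of which 2 gave its order exactly. Unmapped reads made up 18.4%, 13.6% and 4.25% of all control reads (replicates 1, 2 and 3). For CD the unmapped reads came to 3.54%, 4.33% and 9.37%. From lowest to highest, the libraries stood in the same order for the unmapped reads as for ENSNVIG00000017438. The same order held for the gene of the ribosomal 5.8S rRNA with the most reads (ENSNVIG00000004589), an RNA without a poly(A) tail, which was at 56.0, 48.7 and 3.53 CPM in control replicates and at 1.66, 4.85 and 11.2 CPM after CD. The RNA of RNase P (ENSNVIG00000015271), the enzyme that trims tRNA precursors, was at 133, 82.3 and 8.04 CPM in control replicates and at 3.87, 7.42 and 14.7 CPM after CD. In this case CD replicate 2 and control replicate 3 changed places. The sum of the 10 ribozyme genes had the same values as this RNA in every library, so the 15 measures were not all separate. For the 778 rRNA genes summed, control replicates 1 and 2 changed places (80.0 and 87.7 CPM). The part of these RNAs and of the unmapped reads in the spread of ENSNVIG00000017438 was not tested.

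**Figure D1:**
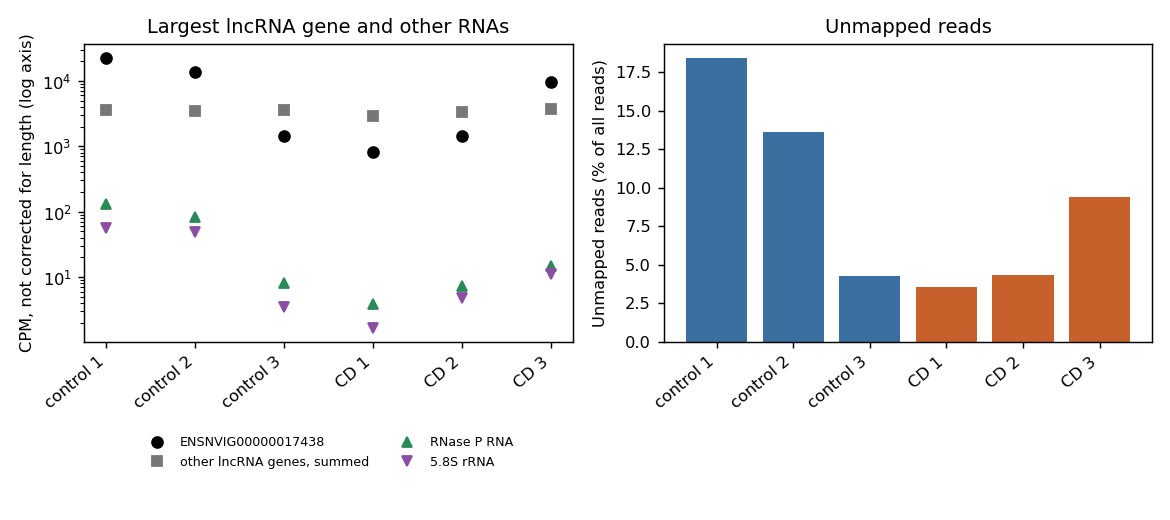
The left panel plots, for each library, the CPM on a log axis of ENSNVIG00000017438 (circles), of the other 206 lncRNA genes summed (squares), of RNase P RNA (upward triangles) and of 5.8S rRNA (downward triangles), and the right panel the unmapped reads as a percentage of all reads in the control (blue) and CD (orange) libraries. ENSNVIG00000017438 ranged from 832 to 22773 CPM and was high where unmapped reads were high, while the summed other lncRNA genes stayed between 2902 and 3659 CPM.

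The 5 tested genes whose deviations from the group means were most like those of ENSNVIG00000017438 over the 6 libraries (Pearson's r of log2 CPM, highest of all tested genes and so a description only) were SUPT3H, GSPT1, ENSNVIG00000018966, C9orf40 and NMRK1, with r between 0.987 and 0.992. Their range within a group was far smaller. C9orf40 was at 6.81, 6.87 and 3.14 CPM in control replicates and at 3.56, 3.93 and 7.64 CPM after CD. ENSNVIG00000018966 is itself a lncRNA gene, at 1.58, 1.16 and 0.496 CPM in control replicates and at 0.615, 0.675 and 1.297 CPM after CD. Both were thus high in control replicates 1 and 2 and CD replicate 3. All 5 genes share these 6 libraries and their depth with ENSNVIG00000017438.

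The next 4 genes by reads varied little within the groups. ENSNVIG00000007625 was at 1363, 1336 and 1343 CPM in control replicates and at 714, 917 and 964 CPM after CD. Every CD library lay below every control library, and the gene fell in CD by 0.64 on the log2 scale (standard error 0.14, FDR 0.00359, edgeR), from 1347 ± 14.2 to 865 ± 133 CPM (SD, n = 3 each). ENSNVIG00000015177 was at 355, 338 and 391 CPM in control replicates and at 382, 429 and 489 CPM after CD, with overlap between the groups (log2 fold change 0.26, FDR 0.113, edgeR). It was called without CD replicate 1 (log2 fold change 0.36, FDR 0.0273, edgeR) and with libraries scaled by total counts (0.27, FDR 0.0457, edgeR). ENSNVIG00000015178 (261 ± 16.3 and 276 ± 23.1 CPM in control and CD, SD, n = 3 each) and ENSNVIG00000014879 (89.4 ± 7.89 and 100.0 ± 14.8 CPM) overlapped as well, with log2 fold changes of 0.083 (standard error 0.11) and 0.16 (standard error 0.14). Hence, of the 5 genes that hold most of the lncRNA reads, only ENSNVIG00000007625 passed the test. It no longer passed with control replicates 1 and 2 both left out (log2 fold change -0.64, FDR 0.115, edgeR).

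The effect of CD was then compared gene by gene, with the quasi-likelihood test of edgeR fitted to all genes and an FDR under 0.05 (Benjamini-Hochberg over all genes tested). A filter on low counts let 205 of the 207 genes through. After CD, 42 of them were higher and 30 lower, which is 20.5% and 14.6% of those tested, and 133 were not called. Over all 12148 tested genes the shares were 24.8% higher and 22.9% lower, 47.7% in both directions together, against 35.1% of the lncRNA genes. Of the 205 tested lncRNA genes, 27 were called higher and 14 lower with a change of 2-fold or more, where the shares of all tested genes were 10.6% and 9.64%. With a change of 4-fold or more, 4 were called higher and 5 lower, where the shares of all tested genes were 2.63% and 2.49%. Of these, 2 higher and 1 lower gene had fewer than 10 reads in every library of the lower group. The median log2 fold change was 0.024 over the 205 genes and 0.057 over all tested genes, and the lower and upper quartiles of the lncRNA genes were -0.49 and 0.61. In 50 of the 205 genes all 3 CD libraries lay above all 3 control libraries, where the share of all tested genes was 29.5%. In 50 others all 3 CD libraries lay below, where the share of all tested genes was 28.6%. Together these were 48.8% of the lncRNA genes, where the figure for all tested genes was 58.0%. All 72 called genes were among these 100. For any gene taken alone, the smallest two-sided p that an exact permutation of 3 and 3 libraries allows is 0.1.

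**Figure D2:**
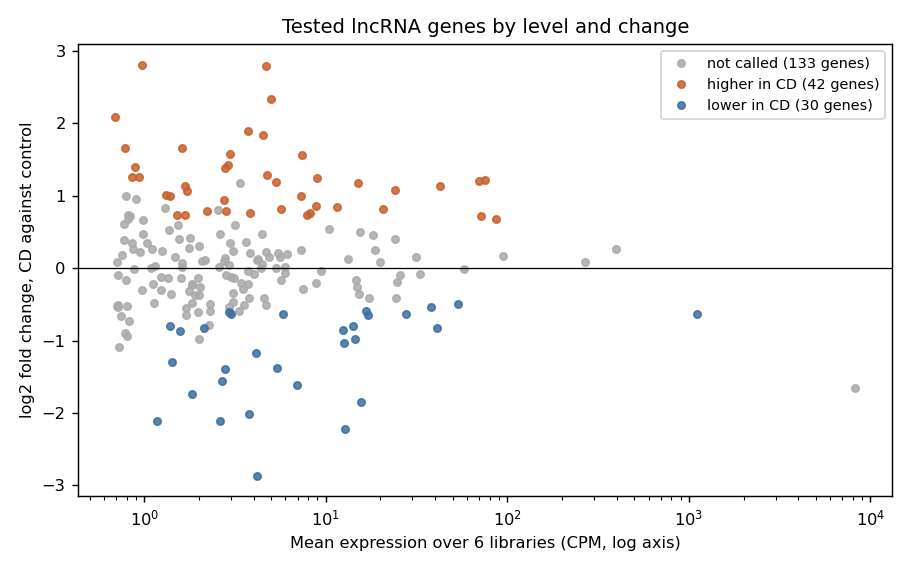
Each point is a tested lncRNA gene, with its mean CPM over the 6 libraries on a log axis and its log2 fold change in CD against control, colored by the call of edgeR at an FDR under 0.05. The 42 higher and 30 lower genes are shown beside 133 that were not called, the called gene at the highest level is ENSNVIG00000007625, which was lower, and the point far to the right is ENSNVIG00000017438, which was not called.

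The genes were also divided by their read total. Of the lncRNA genes with 60 or more but fewer than 200 reads, 13 of 81 were higher and 6 lower, together 23.5%, while 38.0% of 1182 protein-coding genes with as many reads were called. From 200 to fewer than 1000 reads, 20 of 82 lncRNA genes were higher and 11 lower, 37.8% against 41.7% of 2669 protein-coding genes. With 1000 reads or more, 9 of 42 were higher and 13 lower, 52.4% against 51.6% of 7844 protein-coding genes. Thus the lncRNA genes with many reads were called about as often as protein-coding genes, and the shares differed most where reads were fewest. The median standard error of the log2 fold change was 0.32 in the lowest and 0.18 in the highest class of lncRNA genes, and 0.33 and 0.15 in those of protein-coding genes. These shares are descriptions, and their differences were not tested. The classes also differ in depth within themselves. The median total of lncRNA and protein-coding genes was 115 and 117 reads in the lowest, 353 and 519 in the middle and 2200 and 4594 in the highest class.

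**Figure D3:**
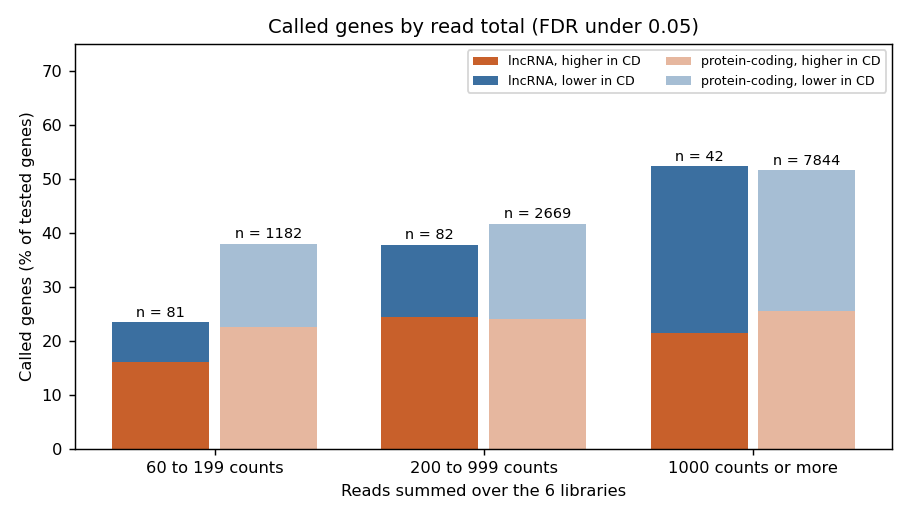
Bars give the percentage of tested genes called higher (orange) or lower (blue) in CD at an FDR under 0.05, for lncRNA genes (full color) and protein-coding genes (pale) in 3 classes of reads summed over the 6 libraries, with the number of genes tested above each bar. The bars of lncRNA genes reach 23.5%, 37.8% and 52.4%, and those of protein-coding genes 38.0%, 41.7% and 51.6%.

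Of the 72 called genes, 4 higher ones had fewer than 10 reads in every control library and 1 lower one had fewer than 10 in every CD library. Such genes pass the filter through the group where they are high and had to differ, so they are given by their reads with no test. Among the called genes without overlap between the groups, ENSNVIG00000013250 was such a gene, with 2, 2 and 7 reads in control and 25, 22 and 32 in CD replicates 1, 2 and 3. Its log2 fold change of 2.81 was the highest of all but rested on these few control reads. Without control replicate 3, which held most of them, it was 3.50, and without control replicate 1, control replicate 2 or CD replicate 3 it was 2.59, 2.59 and 2.53, below that of ENSNVIG00000009398 (2.77, 2.85 and 2.77). ENSNVIG00000006489, with 1, 6 and 5 reads in control and 21, 20 and 12 in CD replicates, and ENSNVIG00000011853, with 7, 6 and 4 and 28, 15 and 13 reads, were of the same kind.

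ENSNVIG00000009398, with more reads, was at 1.15, 1.301 and 1.10 CPM in control replicates and at 8.17, 8.40 and 7.996 CPM after CD. The libraries of each group lay close together, and the gene rose 6.91-fold, from 1.18 ± 0.104 to 8.19 ± 0.205 CPM (SD, n = 3 each). On the log2 scale this was 2.79 (standard error 0.21, FDR 4.85e-06, edgeR). ENSNVIG00000020009 was at 1.86, 1.16 and 1.87 CPM in control replicates and at 9.03, 8.47 and 7.42 CPM after CD. This was a rise of 5.04-fold (log2 fold change 2.33, standard error 0.24, FDR 3.52e-05, edgeR). ENSNVIG00000014457 and ENSNVIG00000005826 followed, with rises of 3.72-fold and 3.56-fold (FDR 4.67e-04 and 1.38e-04, edgeR). ENSNVIG00000019266 completed the 8 highest, with 11, 13 and 11 reads in control and 32, 32 and 48 in CD replicates. It passed the filter through the CD group, where it is high, so no test is given for it. With any 1 library left out, ENSNVIG00000009398 and ENSNVIG00000020009 were called as well.

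The lowest log2 fold change belonged to ENSNVIG00000017282. It was at 7.09, 7.59 and 7.49 CPM in control replicates and at 1.11, 1.10 and 0.792 CPM after CD. The gene was thus 7.29-fold lower in CD (log2 fold change -2.87, standard error 0.22, FDR 6.84e-06, edgeR), with little spread in either group. ENSNVIG00000000107 was at 22.9, 21.2 and 19.01 CPM in control replicates and at 3.87, 4.91 and 4.68 CPM after CD. It fell from 21.1 ± 1.97 to 4.49 ± 0.545 CPM (SD, n = 3 each), or by 2.23 on the log2 scale (standard error 0.18, FDR 8.07e-06, edgeR). ENSNVIG00000004998, also with over 1000 reads in all, was at 26.7, 24.1 and 22.4 CPM in control replicates and at 5.04, 8.71 and 6.63 CPM after CD. This was a fall by 1.84 on the log2 scale (standard error 0.21, FDR 7.71e-05, edgeR). ENSNVIG00000018891, ENSNVIG00000007232 and ENSNVIG00000012423 were 4.03-fold, 3.35-fold and 3.07-fold lower, with an FDR of at most 5.30e-04 (edgeR). ENSNVIG00000011135, with 32, 27 and 27 reads in control and 5, 8 and 7 in CD replicates, passed the filter through the control group. The same held for ENSNVIG00000001749, with 62, 55 and 79 reads in control and 18, 19 and 9 in CD replicates.

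**Figure D4:**
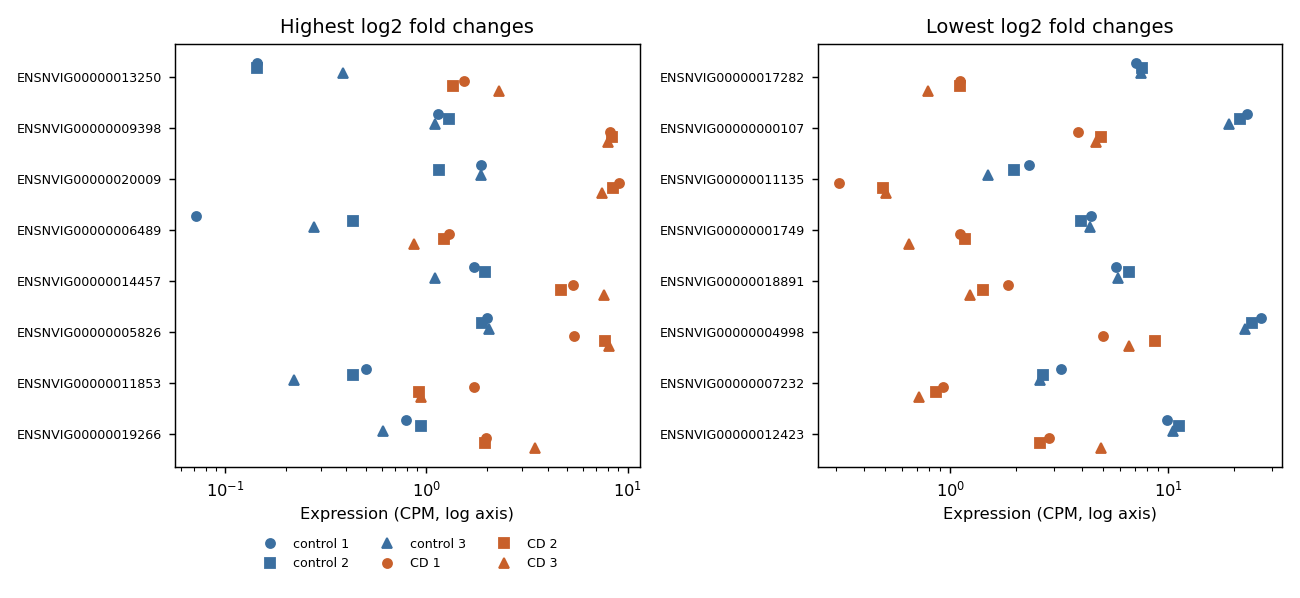
CPM on a log axis in each library for the 8 called lncRNA genes with the highest (left) and the 8 with the lowest (right) log2 fold change among those whose groups do not overlap, with control libraries in blue, CD libraries in orange, and replicates 1, 2 and 3 as circles, squares and triangles. ENSNVIG00000009398 moves from about 1.18 to 8.19 CPM and ENSNVIG00000017282 from 7.39 to 1.001 CPM.

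Some lncRNA genes with 1000 reads or more, named after their values were seen, also rose. ENSNVIG00000011298 was at 42.5, 52.0 and 41.4 CPM in control replicates and at 92.1, 79.4 and 145 CPM after CD, and ENSNVIG00000023885 at 38.2, 46.2 and 41.8 and at 76.7, 81.2 and 132 CPM. Their log2 fold changes were 1.22 and 1.20 (FDR 0.00110 and 9.02e-04, edgeR), and in both CD replicate 3 was the highest library. ENSNVIG00000019014 rose by 1.13 on the log2 scale (FDR 6.84e-05, edgeR), from 26.8 ± 1.78 to 58.9 ± 4.76 CPM (SD, n = 3 each). Among the lower genes of this class was ENSNVIG00000006408, which went from 52.4 ± 3.85 to 29.5 ± 4.18 CPM (log2 fold change -0.83, FDR 9.47e-04, edgeR). The library kit does not mark the strand of the RNA, so reads of a lncRNA gene and of a gene that overlaps it on the other strand cannot be told apart, and reads of genes with a near-identical copy are uncertain.

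Spread within the groups was larger in CD than in control for 148 of the 205 tested lncRNA genes (72.2%), as it was for 76.4% of all tested genes. The median SD of log2 CPM was 0.19 in control and 0.33 in CD. Over all tested genes, which have more reads, it was 0.13 and 0.25. In the lowest class of reads, lncRNA genes (0.32 and 0.36) and protein-coding genes (0.31 and 0.37) had similar medians. From 200 to fewer than 1000 reads they were 0.17 and 0.29 for lncRNA genes and 0.18 and 0.31 for protein-coding genes. With 1000 reads or more the medians were 0.13 in control and 0.31 in CD for lncRNA genes and 0.10 and 0.21 for protein-coding genes. An SD over 1 was seen in the control libraries for ENSNVIG00000017438 only and in the CD libraries for 6 lncRNA genes (2.93%, against 0.938% of all tested genes, while by class of reads it was 2.47%, 3.66% and 2.38% against 2.20%, 1.57% and 0.331% of protein-coding genes, lowest class first). Besides ENSNVIG00000017438 these were, the last 3 of them named after their values were seen, ENSNVIG00000001738, ENSNVIG00000003263, ENSNVIG00000002441, ENSNVIG00000016355 and ENSNVIG00000008593. ENSNVIG00000003263 had 34, 44 and 7 reads in CD replicates 1, 2 and 3, against 15, 16 and 32 in control. ENSNVIG00000002441 was at 7.44, 5.09 and 1.44 CPM in CD, while its control libraries lay between 1.87 and 2.44 CPM. In these and in ENSNVIG00000016355 and ENSNVIG00000008593, CD replicate 3 was the lowest CD library. In ENSNVIG00000001738 it was CD replicate 1 that stood apart, with 20 reads against 3 and 3. With all libraries none of these genes was called, and ENSNVIG00000002441 came closest (log2 fold change 1.17, FDR 0.0625, edgeR). ENSNVIG00000002441 was called without CD replicate 3 (log2 fold change 1.55, FDR 1.66e-07, edgeR) and with DESeq2 (adjusted p 0.0435). Without CD replicate 3, ENSNVIG00000003263 (log2 fold change 0.78 in place of 0.41, FDR 0.0227, edgeR) and ENSNVIG00000016355 (0.71 in place of 0.36, FDR 0.00650, edgeR) were called as well. Without CD replicate 1, ENSNVIG00000001738 had a log2 fold change of -2.37 in place of -0.93. It then rested on 3 and 3 CD reads and passed the filter through the control group, so no test is given. Each library left out here was the one that stood apart in these same values, so a smaller spread was bound to follow. The calls gained by leaving out a library are therefore descriptions only.

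CD replicate 3 was the library farthest from the other two of its group for 114 of the 205 lncRNA genes (55.6%). Among the 205 genes, 6 were more than 2-fold higher and 20 more than 2-fold lower in it than the mean of log2 CPM in CD replicates 1 and 2. These were 2.93% and 9.76% of them, against 0.914% and 5.31% of all tested genes. Over all tested genes it was farthest for 49.9%. CD replicate 3 was also the CD library with the most unmapped reads (9.37%). Without it, 47 lncRNA genes were higher and 44 lower, compared with 42 and 30 with all libraries, and over all genes 3616 were higher and 3606 lower, compared with 3016 and 2784.

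**Figure D5:**
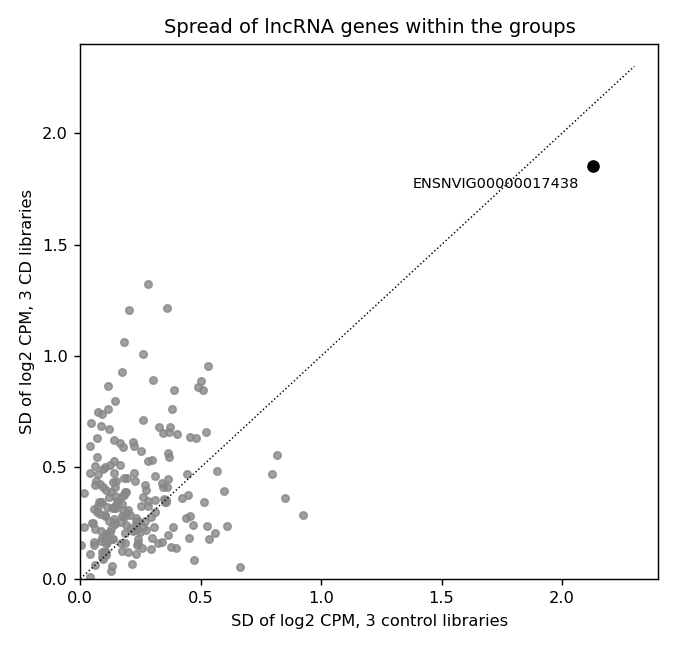
Each point is a tested lncRNA gene, with the SD of log2 CPM over the 3 control libraries on the horizontal and over the 3 CD libraries on the vertical axis; the dotted line marks equal spread. Most points (148 of 205) lie above the line, and ENSNVIG00000017438 stands alone at 2.13 and 1.85.

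At the lower limit of the choice, ENSNVIG00000003840 and ENSNVIG00000021258 were just inside, with 60 and 64 reads, and did not pass the filter, which looks at the reads of each library. ENSNVIG00000003840 had 5, 6 and 8 reads in control and 9, 14 and 18 in CD replicates. Just outside were ENSNVIG00000005677 and ENSNVIG00000006273, with 59 and 56 reads. ENSNVIG00000005677 had 10, 7 and 17 reads in control and 14, 7 and 4 in CD replicates and passed the filter. It was not called (log2 fold change -0.45, standard error 0.44, FDR 0.426, edgeR).

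Genes that act on lncRNAs were described from lists of the machinery of their processing and decay and of their partners. The nuclear exosome, which degrades many lncRNAs from the 3′ end, had 14 tested members with adaptors, of which 7 were lower, 1 was higher and 6 were not called. Their median log2 fold change was -0.45. EXOSC2, a subunit of the exosome core, fell from 45.02 ± 1.65 to 15.5 ± 1.003 CPM (SD, n = 3 each, FDR 1.18e-05, edgeR). EXOSC10, the nuclear nuclease of the exosome, had a log2 fold change of -0.53 (FDR 0.00271, edgeR). ZFC3H1, which links polyadenylated nuclear RNA to the exosome, was the member that rose (log2 fold change 0.81, FDR 0.00318, edgeR). Of 12 tested factors of nonsense-mediated decay, which degrades transcripts that terminate translation early, 3 were lower and 1 was higher (median -0.22). UPF1, its helicase, went from 194 ± 15.2 to 103 ± 27.7 CPM (log2 fold change -0.91, FDR 0.00269, edgeR), and UPF3A rose (log2 fold change 0.93, FDR 0.00199, edgeR).

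Of 11 tested proteins of paraspeckles, nuclear bodies built on a lncRNA, 5 were lower and none was higher (median -0.32). RBM14 fell by 1.18 on the log2 scale (FDR 6.00e-05, edgeR), whereas NONO and SFPQ were not called (log2 fold change -0.22 and -0.23, FDR 0.119 and 0.120, edgeR). In Polycomb repressive complex 2, a histone methyltransferase to which several lncRNAs bind, 3 of 10 tested members were higher and 2 lower (median -0.083). The catalytic subunit EZH2 fell from 45.05 ± 1.55 to 17.6 ± 0.442 CPM, and its counterpart EZH1 rose from 22.0 ± 1.06 to 44.8 ± 4.0 CPM (SD, n = 3 each; FDR 1.90e-05 and 1.58e-04, edgeR). PHF19, an accessory subunit, had the lowest log2 fold change of this list (-1.94, FDR 2.73e-04, edgeR). Of 13 factors of cleavage and polyadenylation, 5 were lower and 1 was higher (median -0.13), CPSF4 being the lowest (log2 fold change -1.07, FDR 2.20e-04, edgeR) and PAPOLG, a poly(A) polymerase, the one that rose (0.88, FDR 0.00182, edgeR). Of 8 microRNA processing factors, 3 were lower and 2 higher (median -0.33), with DROSHA, the nuclease that cuts primary microRNA transcripts, at -1.09 (FDR 1.75e-04, edgeR). The lists count genes beside the 22.9% lower and 24.8% higher of all tested genes, and no list was tested as a set. Of a list of 37 symbols of well-studied lncRNAs and other noncoding RNAs, 1 was found in the table. That was 7SK, an RNA that holds back transcription elongation, which the table carries as a miscellaneous RNA and not as a lncRNA. Its row with the most reads had 77 reads in all and was not called (log2 fold change 0.76, FDR 0.159, edgeR).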

How the data were processed

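Per the labels and the paper's methods, the authors sequenced poly(A) RNA of Mv1Lu cells on a NextSeq500 after preparation with the Nextera XT kit, trimmed reads with fastp 0.20.1 and aligned them to the mink assembly NNQGG.v01 with STAR 2.7.2a. The program that counted reads, and its strand setting, are not given in the sources used here. The authors deposited raw counts per gene for 6 libraries, used here, and normalized expression per library, which was not used here. Divided by its smallest value above 0, each normalized value was a whole number found among the counts of its library (tolerance 1e-06), but under the same identifier 0.329% to 0.778% of the values above 0 were equal, and the 4 totals of reads outside genes stood under gene identifiers. Which of both assignments of identifiers is right was not checked against Ensembl. Identifiers, symbols and biotypes were taken from the count table alone, and all results here rest on its assignment.

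The table ends with 4 rows for reads outside any gene (unmapped, multimapping, without feature, ambiguous), which entered neither library sizes nor tests and held 29.3% to 47.2% of all reads. Counts were analysed in R 4.3.3 with edgeR 4.0.16 (filterByExpr with a minimum count of 10 and a minimum total of 15, TMM, glmQLFit with robust estimation, glmQLFTest, condition as the only term) over all 6 libraries. The Benjamini-Hochberg adjustment covered all 12148 tested genes, and genes were called at an adjusted p under 0.05. The standard error is the log2 fold change divided by the square root of F. For the SD of log2 CPM, a prior count of 1 was added. The filter passed 205 of the 207 lncRNA genes, and 3 lncRNA genes with fewer than 60 reads. A gene that passes through its higher group alone is favored to differ, so counts over the tested genes are descriptions. Groups came from the sample titles. The script was tested on simulated data.

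The members, lists and rules were chosen with earlier results of these data known. The genes named are the 8 highest and 8 lowest log2 fold changes among called genes whose groups do not overlap, the 5 with the highest mean CPM, the 3 with the largest spread within groups, those next to the limit of 60 reads, and any whose call changed sign under an alternative, of which there were 0. Symbols on more than 1 row were taken from the row with the most reads. The RefSeq table (assembly ASM_NN_V1) has no Ensembl identifiers, so 0 of 207 genes were matched. Alternatives were DESeq2 1.42.0, limma-voom (limma 3.58.1), other scalings and filters, a block on the replicate number, leaving out single libraries, other read limits and an FDR of 0.01.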

Additional observations from a re-analysis of the deposited data

How the results depend on the processing

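The numbers of higher and lower lncRNA genes, 42 and 30, came to 34 and 25 with DESeq2 and 43 and 32 with limma-voom, and stayed within 1.5 times under the other scalings and with no filter. Exceptions were a minimum of 50 counts in 3 libraries, which tested 100 genes and left 26 higher, and an FDR of 0.01, which left 25 higher. With each library left out in turn, 31 to 47 were higher and 20 to 44 lower. With both control libraries with the most unmapped reads (replicates 1 and 2) left out, an alternative chosen after seeing the data that assumes the remaining control library to vary like the CD libraries, 10 were higher and 12 lower, while over all genes 978 and 1227 were called instead of 3016 and 2784. Wherever they were tested in the other 15 alternatives, 24 of 42 higher and 20 of 30 lower genes kept their call. With the reads of ENSNVIG00000017438 taken out before scaling, also chosen after seeing the data, 42 were higher and 31 lower. ENSNVIG00000017438 itself had a log2 fold change between -3.50 (without CD replicate 3) and -0.91 (without control replicate 1) with each library left out, and of 1.48 with both control libraries left out, with an FDR of 0.0822 to 0.600 over its alternatives. With each library left out, the log2 fold changes of ENSNVIG00000015178 and ENSNVIG00000003263 ranged from -0.0040 to 0.16 and from -0.057 to 0.78, and both were below 0 without CD replicate 2. The mean share of gene reads on lncRNA genes in control, 1.60%, was 0.353% without ENSNVIG00000017438, and with each library left out it lay between 1.11% and 2.17% in control and between 0.433% and 0.877% in CD. With the replicate number as a block, 44 were higher and 29 lower. Same-numbered libraries did not deviate together (correlations of -0.026, -0.31 and -0.18 across genes), so the numbers were not taken to pair the libraries. The block also called ENSNVIG00000002441 (log2 fold change 0.97, FDR 0.0223). The median lncRNA gene tested had 274 reads over 6 libraries, against 2109 for all tested genes. The cause of these changes was not tested.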

Other observations

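Other noncoding RNA classes of the table were summed per library after their values were seen, and these sums were not tested. Small nucleolar RNAs (563 genes), which guide the modification of ribosomal RNA and mostly lie in introns of host genes, came to 104, 99.7 and 84.6 CPM in control and to 42.2, 44.4 and 57.9 CPM in CD replicates 1, 2 and 3, so that the groups did not overlap. Small Cajal body RNAs (26 genes), which guide the modification of spliceosomal RNA, came to 9.03, 6.79 and 3.80 CPM in control and to 2.03, 2.699 and 4.32 CPM in CD. These overlapped, with control replicates 1 and 2 highest. Reads on microRNA genes (204 genes), which in a poly(A) library can come from the primary transcript, came to 4.80, 4.48 and 4.85 CPM in control and to 9.34, 14.9 and 10.9 CPM in CD, without overlap. Both mitochondrial rRNAs together came to 1322, 750 and 484 CPM in control and to 571, 509 and 1004 CPM in CD, again high in control replicates 1 and 2 and CD replicate 3.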
